A study of Homo sapiens with 9 samples.

Results

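The transcripts of 59 human genes of the amino acid transporter families SLC1, SLC3, SLC6, SLC7, SLC36, SLC38 and SLC43 were compared between JAG1 knockout clones and wild-type cells. The genes were chosen by symbol, as every symbol made of 1 of these family names, the letter A and a number, which gave 59 of the 56505 symbols listed. By family they comprised 7 genes of SLC1, 2 of SLC3, 19 of SLC6, 13 of SLC7, 4 of SLC36, 11 of SLC38 and 3 of SLC43. The rule itself uses no measured value, but it was chosen with earlier results of these data known.

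These proteins move amino acids across the plasma membrane and the lysosomal membrane. The SLC7 light chains pair with an SLC3 heavy chain and mostly exchange 1 amino acid for another. SLC1 and SLC38 carriers are coupled to sodium, and SLC36 includes carriers coupled to protons. In cancer cells the families are known for glutamine, leucine and arginine supply and, through cystine uptake, for glutathione synthesis. Several SLC6 members carry neurotransmitters, creatine, taurine or betaine, so the family names are wider than amino acids.

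RNA sequencing covered MDA-MB-231-D3H2LN human breast cancer cells, which stem from MDA-MB-231, in 3 states with 3 libraries each: JAG1 knockout clone 2, JAG1 knockout clone 1 and wild type. JAG1 encodes a ligand of the Notch receptors. The knockouts were made by transfecting complexes of Cas9 protein and guide RNAs directed at separate places of a JAG1 exon, and homozygous clones were grown from single cells by serial dilution, so each clone is 1 line and its results describe that line. All cells, wild type included, were kept in DMEM rich in glucose, with 10% serum, a medium that supplies amino acids, and no medium depleted of them was among the samples.

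Libraries held 16890890 to 22456164 counts each, and the 59 genes together took 0.233 to 0.286% of them. Whether the libraries of a group stem from separate cultures is not stated, and p-values here reflect only how these libraries vary, possibly for technical reasons. JAG1 (chromosome 20, GRCh38, 10637684 to 10674107, minus strand) averaged 66.9 ± 9.87 CPM in clone 2 and 94.5 ± 14.9 CPM in clone 1, against 195.9 ± 44.7 CPM in wild type (SD, n = 3 each), where CPM is a count scaled to library size. Transcripts known for this line, such as VIM (13825 to 48498 counts per library), were abundant, and ESR1 (1 to 25), PGR (0 to 9) and CDH1 (0 to 19) were near absent. Of the epithelial genes, EPCAM was detected (222 to 535) and KRT19 was not low (2111 to 6514). Of 9 markers of other cell types, CD3E had 0 counts, PTPRC, LYZ, CDH5, VWF, COL3A1 and DCN had 0 to 55 per library, and PECAM1 (35 to 104) and COL1A1 (248 to 733) were detected. The mitochondrial mRNA share of all counts was 1.21 ± 0.506% in clone 2, 3.60 ± 1.31% in clone 1 and 2.62 ± 1.01% in wild type (SD, n = 3 each), with no overlap between the clones.

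Of the 59 genes, 51 had at least 1 count in any library, and 34 had enough counts to be tested among 16921 genes. The 17 genes that were counted but not tested held 1 to 55 counts over all 9 libraries, with at most 17 in 1 library. The tested genes comprised 5 of SLC1, 2 of SLC3, 7 of SLC6, 8 of SLC7, 2 of SLC36, 7 of SLC38 and 3 of SLC43. The genes with 0 counts included SLC7A13, SLC7A14, SLC36A2 and SLC38A8, which are known from kidney, retina or other tissues.

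Levels per kilobase of exon (CPM per kb), the scale on which genes can be compared, spanned several orders of magnitude. The 5 most abundant of the 59 genes in each library made up 66.7 to 73.7% of the summed level of that library. SLC7A5, the light chain of the leucine and large neutral amino acid exchanger LAT1, had a level of 82.6 ± 24.2 CPM per kb in clone 2 and 57.8 ± 2.53 in clone 1, against 87.1 ± 20.4 in wild type (SD, n = 3 each). SLC1A5, the neutral amino acid exchanger ASCT2 that takes up glutamine, had 96.2 ± 20.1 CPM per kb in clone 2 and 62.7 ± 1.37 in clone 1, against 78.1 ± 11.4 in wild type. SLC38A2, the sodium-coupled system A carrier SNAT2, had 69.8 ± 4.97 CPM per kb in clone 2 and 76.8 ± 9.06 in clone 1, against 67.6 ± 3.59 in wild type. These were the highest levels of the 59 genes in each group. In wild type the libraries of SLC1A5 overlapped with those of SLC7A5 and of SLC38A2, while every SLC7A5 library (74.7 CPM per kb or more) lay above every SLC38A2 library (up to 71.5). SLC3A2, the heavy chain CD98, came next with 56.8 ± 19.6 CPM per kb in clone 2 and 40.4 ± 8.08 in clone 1, against 50.4 ± 12.4 in wild type. SLC7A1, the cationic amino acid transporter CAT1 that takes up arginine and lysine, followed with 43.01 ± 6.58 CPM per kb in clone 2 and 25.3 ± 1.64 in clone 1, against 32.6 ± 7.08 in wild type.

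**Figure D1:**
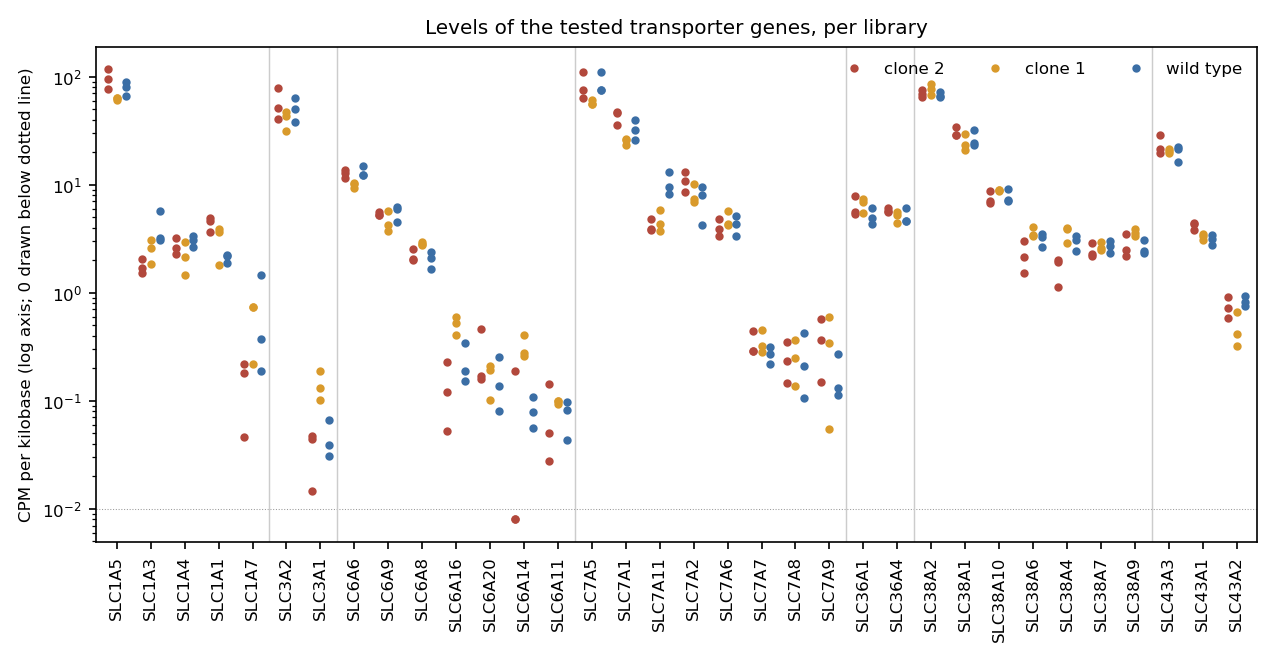
Levels of the 34 tested transporter genes in CPM per kilobase (log axis), 1 point per library, in clone 2, clone 1 and wild type, with genes grouped by family and ordered by their wild-type mean. SLC7A5, SLC1A5, SLC38A2, SLC3A2 and SLC7A1 stand at the top in all groups, and SLC3A1 and SLC6A11 are among the lowest in each.

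Few transporter genes differed from wild type, and SLC7A11, which encodes the cystine-glutamate exchanger xCT, was lower in both clones. In clone 2, 3 of the 34 tested genes were called by edgeR's quasi-likelihood test at a Benjamini-Hochberg adjusted p under 0.05, SLC1A1 higher and SLC1A3 and SLC7A11 lower. The background over all tested genes was 5.96% (3.21% higher and 2.75% lower). In clone 1, SLC7A11 was the 1 gene called, and it was lower, against a background of 5.51% (1.41% higher and 4.10% lower). Both shares of the transporter genes are near the background. The median log2 fold change of the 34 genes was −0.00085 in clone 2, against 0.0011 for all tested genes, and 0.09 in clone 1, against −0.02 for all. In each clone 25 of the 34 genes (73.5%) lay within 0.5 of 0 on the log2 scale, as did 72.0% of all genes in clone 2 and 73.1% in clone 1. Both comparisons use the same wild-type libraries, so their results are not independent.

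Groups without overlap between libraries were counted as well. Clone 2 and wild type did not overlap for 5 transporter genes, 2 higher and 3 lower (background 25.9%, 14.2% higher and 11.7% lower), and clone 1 and wild type for 11, 5 higher and 6 lower (background 29.6%, 13.1% higher and 16.5% lower). At an unadjusted p under 0.05 there were 9 genes in clone 2 (background 24.2%) and 11 in clone 1 (background 21.8%). In clone 2 the replicate numbers of the labels paired the libraries with wild type by their deviations. With that number as a block over all 9 libraries, clone 1 included, 7 genes were called (background 16.0%). These were SLC1A1, SLC7A1 and SLC7A2, higher, and SLC1A3, SLC1A7, SLC7A11 and SLC38A4, lower.

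**Figure D2:**
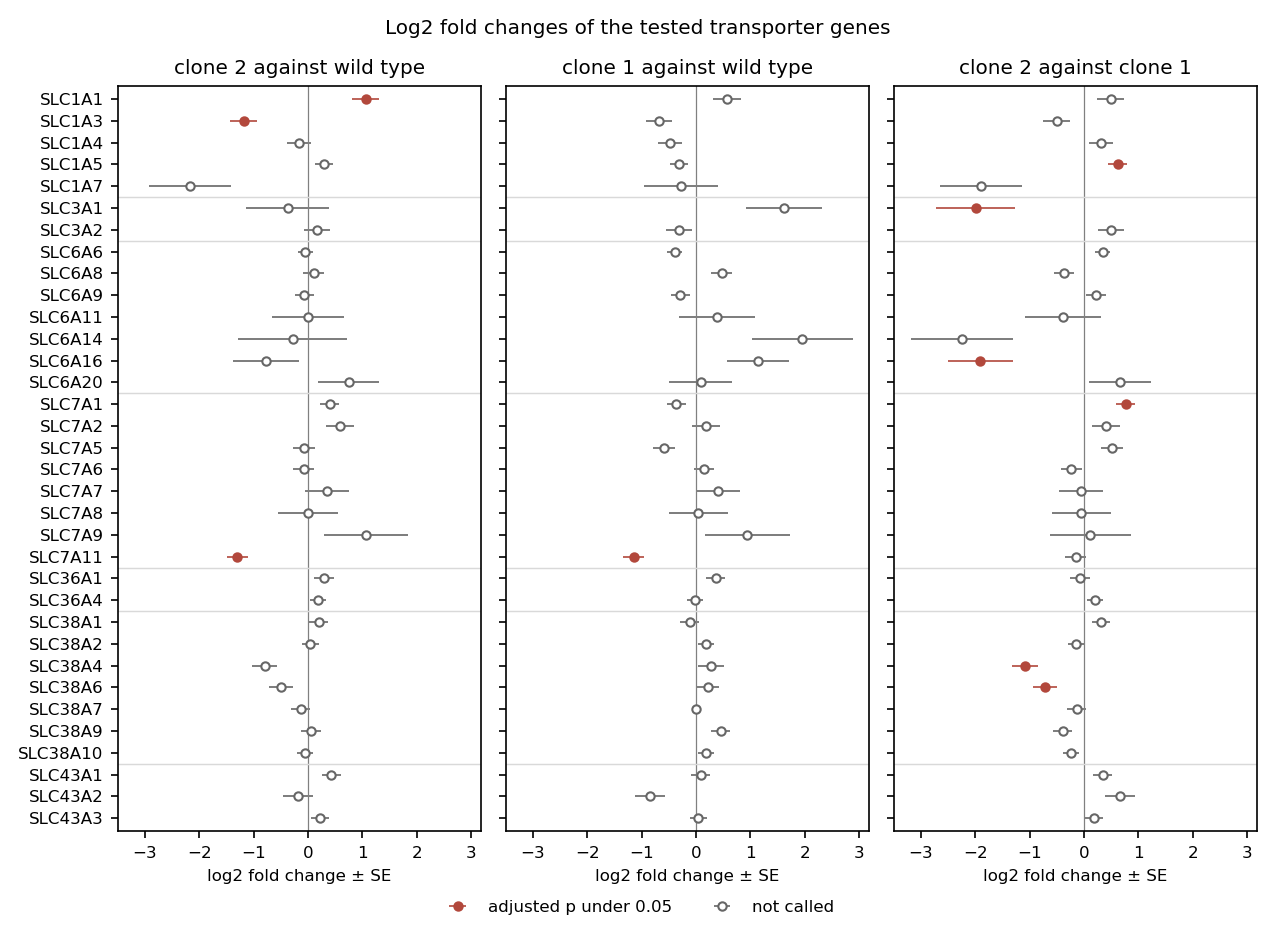
Log2 fold changes of the 34 tested genes with their standard errors (horizontal bars) in clone 2 against wild type, clone 1 against wild type and clone 2 against clone 1. Filled points have an adjusted p under 0.05 in edgeR, with 3, 1 and 6 such genes in the panels from left to right.

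SLC7A11 lies on chromosome 4 (138164097 to 138242349, minus strand). It had 36.7, 37.3 and 46.1 CPM in the clone 2 libraries and 35.6, 41.6 and 56.6 CPM in the clone 1 libraries, against 90.9, 79.8 and 125.5 CPM in the wild-type libraries. All 6 knockout libraries lay below all 3 wild-type libraries, and the clones overlapped each other. By edgeR's quasi-likelihood test its log2 fold change was −1.30 in clone 2 (SE 0.19, adjusted p = 0.00123) and −1.15 in clone 1 (SE 0.19, adjusted p = 0.00309). The difference between the clones was −0.15 (95% interval −0.56 to 0.25, adjusted p = 0.564). Both calls were kept under all 18 alternatives run, the 9 fits that each left out a library among them, with adjusted p of up to 0.0380 in clone 2 and 0.0326 in clone 1. An antisense gene, SLC7A11-AS1, shares up to 691 bases of exon with it and had 5 counts in clone 2, 39 in clone 1 and 28 in wild type over 3 libraries each, and the strand setting of the counting is not given in the sources used here.

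The heavy chain SLC3A2, on chromosome 11 (62856102 to 62888875, plus strand), was not called by edgeR in the comparisons of the 3 groups. It had 407.1, 211.7 and 263.2 CPM in clone 2 and 242.0, 162.0 and 223.3 CPM in clone 1, against 325.4, 196.7 and 260.2 CPM in wild type. All 3 groups overlapped, with the first library of each the highest, and log2 fold changes were 0.17 in clone 2 (adjusted p = 0.705) and −0.32 in clone 1 (adjusted p = 0.461) by edgeR. Its main light chain SLC7A5 (chromosome 16, 87830023 to 87869488, minus strand) had 520.6, 300.2 and 354.6 CPM in clone 2 and 267.2, 267.1 and 288.0 CPM in clone 1, against 525.1, 360.0 and 354.5 CPM in wild type. The 3 clone 1 libraries lay below every other library, but the log2 fold change of −0.59 in clone 1 missed the threshold (SE 0.20, adjusted p = 0.102 in edgeR; called in 4 of 18 alternatives, with adjusted p of 0.0140 to 0.282), as did −0.08 in clone 2 (adjusted p = 0.856).

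The makeup of the light chains was read from the level per kilobase of the 6 partners of SLC3A2, namely SLC7A5, SLC7A6, SLC7A7, SLC7A8, SLC7A10 and SLC7A11. SLC7A5 took 90.0 ± 2.17% of their summed level in clone 2 and 85.2 ± 0.570% in clone 1, against 84.9 ± 3.96% in wild type (SD, n = 3 each). SLC7A11 took 4.77 ± 1.37% in clone 2 and 6.78 ± 1.33% in clone 1, against 10.3 ± 3.35% in wild type. Clone 2 (up to 5.72%) lay below all wild-type libraries (7.50% or more) for SLC7A11, while clone 1 (up to 8.20%) overlapped with wild type. SLC7A6, the y+LAT2 exchanger of cationic and neutral amino acids, took 4.52 ± 0.813% in clone 2 and 7.01 ± 1.37% in clone 1, against 4.18 ± 0.431% in wild type. The clone 1 shares of SLC7A6 (6.01% or more) were above those of clone 2 (up to 5.46%) and wild type (up to 4.65%), although its CPM did not pass the test in either clone (log2 fold changes −0.08 and 0.15 in clones 2 and 1). SLC7A6 shares up to 3371 bases of exon with SLC7A6OS on the opposite strand, so its counts are uncertain. The level of SLC3A2 over the summed light chains was 0.613 ± 0.0464 in clone 2 and 0.595 ± 0.114 in clone 1, against 0.491 ± 0.0554 in wild type. These shares and ratios are levels of transcripts and carry no test.

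**Figure D3:**
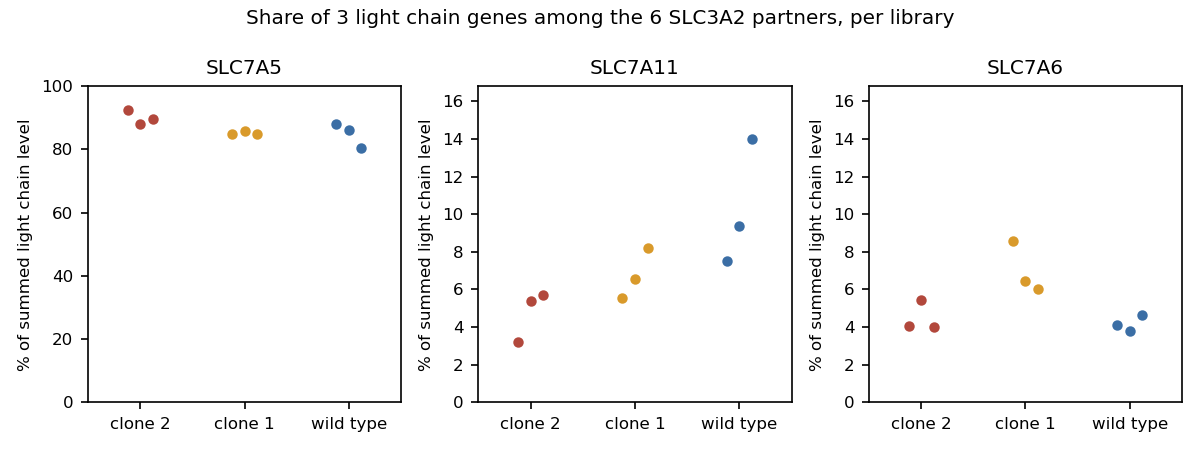
Share of SLC7A5, SLC7A11 and SLC7A6 in the summed level of the 6 light chain genes that pair with SLC3A2, in percent, 1 point per library of clone 2, clone 1 and wild type. SLC7A5 stays above 80% everywhere, SLC7A11 is highest in wild type, and SLC7A6 is highest in clone 1.

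The other light chains were rare. SLC7A7 (y+LAT1), SLC7A8 (LAT2) and SLC7A9, the partner of SLC3A1 in cystine and cationic amino acid uptake, had mean levels of 0.171 to 0.362 CPM per kb in every group, with log2 fold changes of 0.35, −0.01 and 1.06 in clone 2 and 0.40, 0.04 and 0.95 in clone 1, all short of the threshold. SLC7A2 (CAT2, chromosome 8), another cationic amino acid carrier, had 104.7, 67.2 and 84.8 CPM in clone 2 and 80.8, 58.6 and 55.1 CPM in clone 1, against 63.2, 33.4 and 74.7 CPM in wild type. Its groups overlapped, and its log2 fold change of 0.58 in clone 2 (adjusted p = 0.188 in edgeR) was called in 3 of 18 alternatives, the replicate block among them (0.61, adjusted p = 0.0147).

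Among the high-affinity glutamate carriers of SLC1, SLC1A3 and SLC1A1 differed from wild type in clone 2, in opposite directions. SLC1A3 (EAAT1 or GLAST, chromosome 5, 36606355 to 36688334, plus strand), a glutamate and aspartate carrier, had 9.53, 13.0 and 10.7 CPM in clone 2 and 11.6, 19.1 and 16.3 CPM in clone 1, against 20.2, 35.7 and 19.4 CPM in wild type. All libraries of each clone lay below all wild-type libraries, and wild-type replicate 2 was well above the other wild-type libraries. By edgeR it fell in clone 2 (log2 fold change −1.18, SE 0.25, adjusted p = 0.0127) and missed the threshold in clone 1 (−0.68, SE 0.24, adjusted p = 0.113), and the difference between the clones was not called (−0.50, adjusted p = 0.126). The clone 2 call was lost without clone 2 replicate 3 or wild-type replicate 2 (adjusted p of up to 0.0843) and with the mitochondrial share as a covariate (−0.52, adjusted p = 0.499). Under that covariate calls over all genes in clone 2 fell from 1008 to 80. With that covariate the gene was instead called in clone 1 (−0.91, adjusted p = 0.0183 in edgeR). It was also called in clone 1 with no filter and with the replicate number as a block, with or without the GC and length correction.

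SLC1A1 (EAAT3, chromosome 9, 4490444 to 4587469, plus strand), which carries glutamate and cysteine, had 14.5, 19.6 and 18.3 CPM in clone 2 and 7.15, 14.6 and 15.5 CPM in clone 1, against 7.48, 8.76 and 8.90 CPM in wild type. The clone 2 libraries were all above wild type, and in clone 1 replicates 2 and 3 were above and replicate 1 below it. Its log2 fold change was 1.06 in clone 2 (SE 0.25, adjusted p = 0.0236 in edgeR) and 0.57 in clone 1 (SE 0.25, adjusted p = 0.197). In clone 1 it was called without clone 1 replicate 1 and with the replicate block plus the GC and length correction. The clone 2 call was lost without clone 2 replicate 2 or 3 or wild-type replicate 1 or 2, with adjusted p of up to 0.0949.

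The remaining SLC1 genes did not differ from wild type past the threshold. SLC1A5 (chromosome 19, 46774883 to 46788594, minus strand) had 388.5, 254.4 and 318.5 CPM in clone 2 and 203.8, 210.3 and 212.6 CPM in clone 1, against 295.2, 219.7 and 265.7 CPM in wild type. Clone 1 lay below both other groups without overlap, while clone 2 and wild type overlapped, and log2 fold changes were 0.30 in clone 2 (adjusted p = 0.292) and −0.32 in clone 1 (adjusted p = 0.289) in edgeR. SLC1A4 (ASCT1), a carrier of alanine, serine and cysteine, had log2 fold changes of −0.17 in clone 2 and −0.48 in clone 1. SLC1A7 (EAAT5), known from the retina, had 0.247, 0.968 and 1.19 CPM in clone 2 and 1.19, 3.99 and 3.95 CPM in clone 1, against 1.02, 7.95 and 2.01 CPM in wild type. Its log2 fold change of −2.16 in clone 2 missed the threshold (adjusted p = 0.105 in edgeR), and was called with the replicate block (−2.01, adjusted p = 0.00400) and with DESeq2 (−2.20, adjusted p = 0.0196). Of the genes not tested, SLC1A2 (EAAT2) had 13, 7 and 6 counts in wild type.

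Between the clones, 6 of the 34 genes were called by edgeR, which is below the background of 33.9% of all genes (19.8% higher and 14.1% lower in clone 2). SLC1A5 and SLC7A1 were higher in clone 2 than in clone 1, and SLC3A1, SLC6A16, SLC38A4 and SLC38A6 were lower. Libraries of the clones did not overlap for 14 of the 34 genes (6 higher and 8 lower), against 47.4% of all genes (25.8% higher and 21.6% lower), and 22 of the 34 (64.7%) lay within 0.5 of 0 on the log2 scale, against 51.4% of all genes. The median difference was −0.05 for the 34 genes and −0.01 for all genes. With the mitochondrial share as a covariate, added after seeing the data, edgeR called 0 of the 34 genes between the clones (5 at an unadjusted p under 0.05), against a background of 2.31% of all genes. DESeq2 and limma-voom, without that covariate, called 8 and 7, among 6331 and 5859 called over all genes. Without it, edgeR had 12 of the 34 at an unadjusted p under 0.05, against a background of 44.6%.

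**Figure D4:**
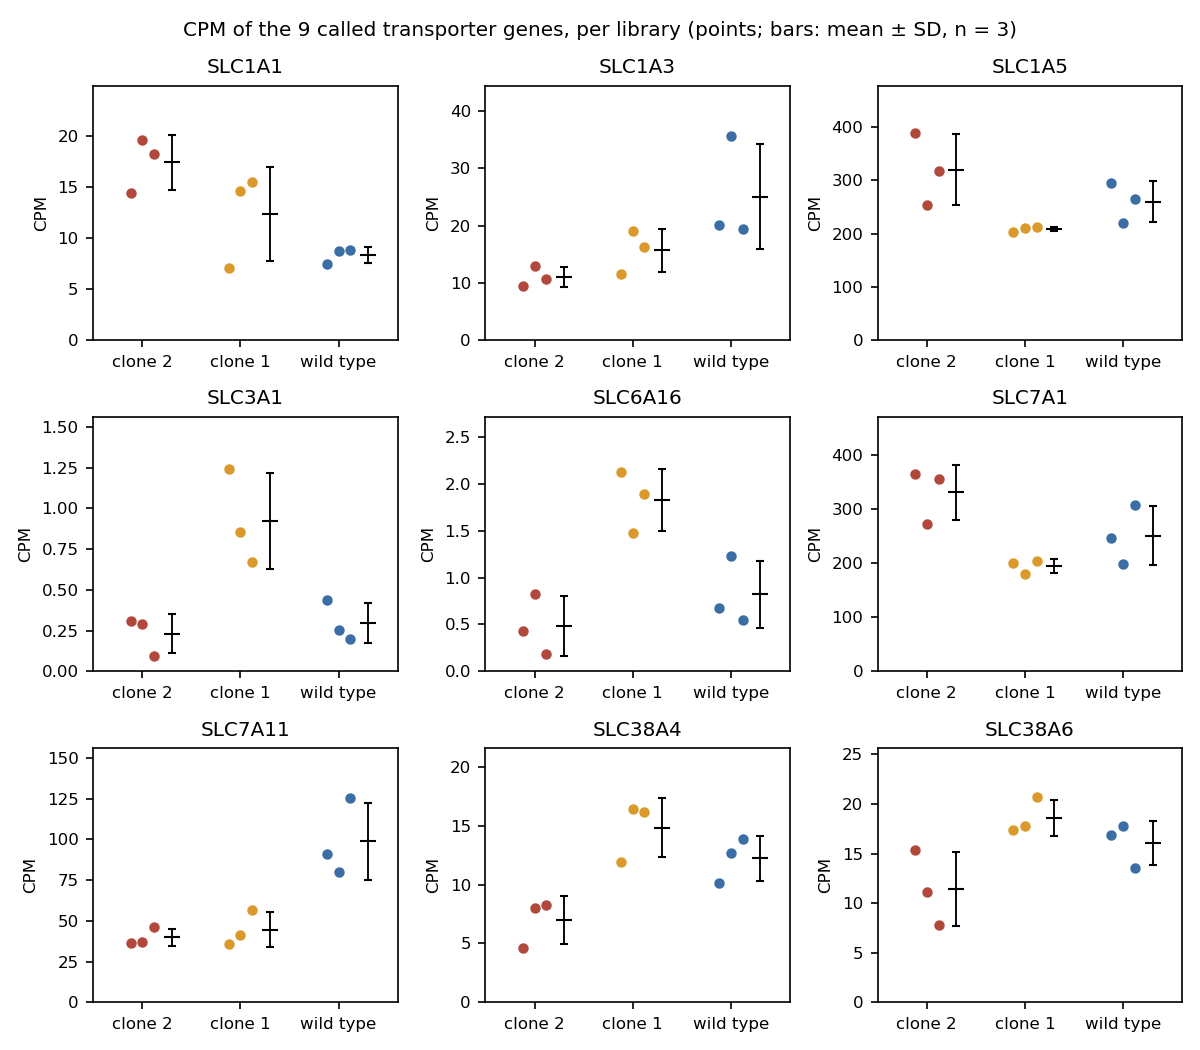
CPM of the 9 transporter genes called in any comparison, 1 point per library, with mean ± SD (n = 3 each) beside each group of clone 2, clone 1 and wild type. SLC7A11 is lower in all 6 knockout libraries, whereas SLC1A5 and SLC7A1 separate clone 2 above clone 1, and SLC38A4 and SLC38A6 clone 2 below clone 1.

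SLC7A1 (chromosome 13, 29509410 to 29595688, minus strand) had 364.7, 272.7 and 355.2 CPM in clone 2, 200.7, 180.1 and 203.2 CPM in clone 1 and 246.9, 198.3 and 307.1 CPM in wild type. Clone 2 lay above clone 1 without overlap, and wild type overlapped both. The log2 difference of clone 2 minus clone 1 was 0.77 (SE 0.17, adjusted p = 0.00367 in edgeR). Against wild type it missed the threshold at 0.40 in clone 2 (adjusted p = 0.172, or 0.0449 with the replicate block) and −0.37 in clone 1 (adjusted p = 0.233). For SLC1A5, the clones did not overlap either, and the log2 difference of clone 2 minus clone 1 was 0.62 (SE 0.17, adjusted p = 0.0111 in edgeR). Both calls were kept in all 9 fits that left out a library and were lost with the mitochondrial share as a covariate, where the differences were 0.24 (adjusted p = 0.590) for SLC7A1 and 0.22 (adjusted p = 0.651) for SLC1A5.

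Promoter sequences were compared because SLC7A1 and SLC1A5 moved in the same direction between the clones. RefSeq start sites (GRCh38.p14, 250 bases before to 50 after each start) were found for 44 of the 59 genes, with 66 starts in all. The motif TGATGNAA, the core of the response element bound by C/EBP and ATF proteins, occurred on either strand in 6 of these 66 windows (9.09%) and in 1270 of 35116 windows of all genes (3.62%). These 6 belong to SLC1A3, SLC1A4, SLC1A5, SLC3A2, SLC7A1 and SLC38A1. Of these genes SLC7A1 and SLC1A5 were called between the clones. SLC3A2, SLC1A3, SLC38A1 and SLC1A4 were not (adjusted p = 0.124, 0.126, 0.173 and 0.302 in edgeR). Whether the motif goes with a difference between the clones was not tested. The E-box CACGTG occurred in 10 of the 66 windows (15.2%) and in 7.26% of all. A match is a description of letters and not a bound site. The windows below run 5′ to 3′ from 250 bases before to 20 after a start, with TGATGNAA matches in capitals, and are shown for a gene higher in clone 2 than in clone 1 with a match at its start (SLC7A1), for another such gene with a match at an internal start and none at its outermost start (SLC1A5), and for a gene lower in clone 2 than in wild type (SLC1A3, whose start here lies upstream of the gene model counted).
SLC7A1, chr13:29595669-29595938, minus strand: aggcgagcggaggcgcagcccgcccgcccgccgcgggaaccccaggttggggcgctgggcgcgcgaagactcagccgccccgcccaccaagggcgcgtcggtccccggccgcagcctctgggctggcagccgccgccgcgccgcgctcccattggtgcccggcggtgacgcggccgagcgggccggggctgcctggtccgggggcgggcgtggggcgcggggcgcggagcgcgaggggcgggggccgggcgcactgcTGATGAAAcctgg
SLC1A5 internal start, chr19:46784795-46785064, minus strand: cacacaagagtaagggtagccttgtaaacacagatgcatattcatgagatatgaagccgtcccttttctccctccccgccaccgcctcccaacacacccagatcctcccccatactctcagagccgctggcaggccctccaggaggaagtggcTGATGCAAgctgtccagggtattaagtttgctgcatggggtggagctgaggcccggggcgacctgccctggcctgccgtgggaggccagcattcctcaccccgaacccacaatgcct
SLC1A5 outermost start, chr19:46788575-46788844, minus strand: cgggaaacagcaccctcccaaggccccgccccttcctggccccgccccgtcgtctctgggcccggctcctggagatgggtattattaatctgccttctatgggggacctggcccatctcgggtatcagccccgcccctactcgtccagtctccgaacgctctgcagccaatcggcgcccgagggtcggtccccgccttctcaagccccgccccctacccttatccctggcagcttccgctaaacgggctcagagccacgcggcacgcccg
SLC1A3 upstream start, chr5:36596338-36596607, plus strand: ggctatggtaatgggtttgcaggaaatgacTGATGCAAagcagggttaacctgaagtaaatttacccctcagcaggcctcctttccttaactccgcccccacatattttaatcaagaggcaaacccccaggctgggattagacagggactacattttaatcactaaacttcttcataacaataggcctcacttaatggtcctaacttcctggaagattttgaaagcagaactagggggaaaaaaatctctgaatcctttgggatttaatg
The match begins 7 bases after the start of SLC7A1, 97 bases before the internal start of SLC1A5 and 220 bases before the upstream start of SLC1A3. The SLC1A3 windows inside the gene model counted (36606356 to 36606655 and 36606704 to 36607003) held 0 matches each. SLC7A1 and SLC1A5 are shown for the comparison of clone 2 with clone 1 and SLC1A3 for that of clone 2 with wild type.

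In the SLC38 family of sodium-coupled neutral amino acid transporters, SLC38A4 and SLC38A6 were lower in clone 2 than in clone 1. SLC38A4 (SNAT4, chromosome 12, 46764761 to 46832408, minus strand), a system A carrier, had 4.64, 8.04 and 8.30 CPM in clone 2, 11.9, 16.4 and 16.2 CPM in clone 1 and 10.2, 12.6 and 13.9 CPM in wild type. Clone 2 lay below both other groups without overlap. The log2 difference of clone 2 minus clone 1 was −1.08 (SE 0.24, adjusted p = 0.00306 in edgeR), kept in all 9 fits that left out a library and lost with the mitochondrial share as a covariate (−0.72, adjusted p = 0.305). Against wild type the log2 fold change in clone 2 was −0.80 (SE 0.24, adjusted p = 0.0586), called with the replicate block (−0.83, adjusted p = 0.00461).

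SLC38A6 (SNAT6, chromosome 14, 60981114 to 61083733, plus strand) had 15.3, 11.1 and 7.83 CPM in clone 2, 17.4, 17.8 and 20.7 CPM in clone 1 and 16.9, 17.8 and 13.5 CPM in wild type. Clone 2 was below clone 1 without overlap and overlapped with wild type. The log2 difference of clone 2 minus clone 1 was −0.71 (SE 0.22, adjusted p = 0.0211 in edgeR), a call lost without replicate 3 of clone 1 or of clone 2, where adjusted p reached 0.0999. It shares up to 245 bases of exon with TRMT5 on the opposite strand, which had 3642 counts in clone 2, 3802 in clone 1 and 4010 in wild type.

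The abundant members of SLC38 did not pass the test. SLC38A2 (chromosome 12, 46358189 to 46372867, minus strand) had 431.5, 454.0 and 496.1 CPM in clone 2 and 447.7, 507.1 and 567.3 CPM in clone 1, against 425.4, 440.8 and 471.9 CPM in wild type. The groups overlapped, and log2 fold changes were 0.05 in clone 2 (95% interval −0.28 to 0.37) and 0.19 in clone 1 (−0.14 to 0.51). SLC38A1 (SNAT1), a glutamine carrier, had log2 fold changes of 0.20 in clone 2 (adjusted p = 0.519) and −0.12 in clone 1 (adjusted p = 0.734). SLC38A9, the lysosomal arginine sensor of the mTORC1 pathway, had 30.8, 22.0 and 19.4 CPM in clone 2 and 29.3, 34.0 and 31.4 CPM in clone 1, against 26.9, 21.7 and 20.6 CPM in wild type. Clone 1 lay above wild type without overlap, but its log2 fold change of 0.45 missed the threshold (SE 0.18, adjusted p = 0.153 in edgeR). SLC38A10 had a log2 fold change of −0.05 in clone 2 and 0.18 in clone 1, and SLC38A7, a lysosomal glutamine exporter, had −0.13 in clone 2, with neither called.

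The tested genes of SLC36, a family with carriers that act at lysosomes, were not called. SLC36A1 (PAT1) had 55.2, 39.2 and 37.2 CPM in clone 2 and 51.0, 38.4 and 48.3 CPM in clone 1, against 42.8, 30.2 and 34.3 CPM in wild type. Its log2 fold changes were 0.29 in clone 2 (adjusted p = 0.344) and 0.36 in clone 1 (adjusted p = 0.261), and the libraries overlapped. SLC36A4 (PAT4) had log2 fold changes of 0.18 in clone 2 (adjusted p = 0.489) and −0.01 in clone 1 (adjusted p = 0.966).

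Among the SLC6 genes the taurine transporter SLC6A6 was the most abundant, with 113.4, 94.9 and 105.9 CPM in clone 2 and 86.1, 77.4 and 84.4 CPM in clone 1, against 100.8, 101.6 and 122.3 CPM in wild type. The clone 1 libraries were the lowest, and its log2 fold change was −0.05 in clone 2 (adjusted p = 0.865) and −0.39 in clone 1 (SE 0.14, adjusted p = 0.103 in edgeR). SLC6A9, the glycine transporter GlyT1, had a log2 fold change of −0.07 in clone 2 and −0.29 in clone 1, and the creatine transporter SLC6A8 had 0.11 in clone 2 and 0.47 in clone 1, with neither called. SLC6A16, an orphan member with no established substrate (chromosome 19, 49289638 to 49325225, minus strand), was called between the clones. It had 7, 17 and 4 counts in clone 2, 41, 31 and 34 in clone 1 and 14, 29 and 11 in wild type. The log2 difference of clone 2 minus clone 1 was −1.91 (SE 0.60, adjusted p = 0.0217 in edgeR), lost without replicate 1 or 3 of clone 1 or replicate 3 of clone 2, where adjusted p reached 0.0841. SLC6A14, a broad carrier of neutral and cationic amino acids, had 0, 0 and 0.854 CPM in clone 2 and 1.24, 1.85 and 1.17 CPM in clone 1, against 0.486, 0.254 and 0.352 CPM in wild type. Clone 1 lay above wild type, but its log2 fold change of 1.96 missed the threshold (adjusted p = 0.226 in edgeR). SLC6A20, a carrier of proline, and SLC6A11, the GABA transporter GAT3, were rare and not called, with log2 fold changes of 0.75 and 0.0032 in clone 2 and 0.09 and 0.38 in clone 1. The serotonin transporter SLC6A4, not tested, had 0, 0 and 0 counts in clone 2, 6, 7 and 5 in clone 1 and 0, 5 and 2 in wild type.

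SLC3A1, the rBAT heavy chain (chromosome 2, 44275458 to 44321494, plus strand), was counted 5, 6 and 2 times in clone 2, 24, 18 and 12 times in clone 1 and 9, 6 and 4 times in wild type. Clone 1 was the highest group and the counts of clone 2 and wild type overlapped. The log2 difference of clone 2 minus clone 1 was −1.99 (SE 0.73, adjusted p = 0.0445 in edgeR), lost in 9 of 9 fits that left out a library (adjusted p of up to 0.175). It shares up to 1247 bases of exon with PREPL on the opposite strand, which had 2207 counts in clone 2, 1450 in clone 1 and 2061 in wild type, so reads of the pair cannot be told apart without the strand setting.

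The SLC43 genes were not called by edgeR. SLC43A1 (LAT3), a leucine carrier, had 15.5, 13.6 and 15.2 CPM in clone 2 and 11.8, 10.8 and 12.3 CPM in clone 1, against 12.0, 11.2 and 9.70 CPM in wild type, with a log2 fold change of 0.43 in clone 2 (adjusted p = 0.151). SLC43A2 (LAT4), a carrier of neutral amino acids, had 9.59, 6.25 and 7.64 CPM in clone 2 and 3.42, 4.42 and 7.02 CPM in clone 1, against 8.02, 9.82 and 8.75 CPM in wild type. Its clone 1 libraries lay below wild type, and the log2 fold change of −0.84 in clone 1 missed the threshold (SE 0.27, adjusted p = 0.0830 in edgeR). It was called in 3 of 18 alternatives, among them DESeq2 (−0.82, adjusted p = 0.0486). SLC43A3, the most abundant member of the family and known as a nucleobase carrier, had log2 fold changes of 0.22 in clone 2 and 0.05 in clone 1.

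Family sums of the level per kilobase were compared library by library, with no test. For SLC7 the sums were 180.0, 115.9 and 140.8 CPM per kb in clone 2 and 103.2, 96.5 and 105.3 in clone 1, against 165.9, 118.2 and 142.5 in wild type. For SLC1 they were 124.4, 85.8 and 105.4 CPM per kb in clone 2 and 66.5, 72.7 and 74.0 in clone 1, against 97.3, 78.4 and 88.1 in wild type. In both families every clone 1 library lay below every other library, also with RLE factors or library size alone as the scaling. SLC7A5 and SLC7A1 made up most of the SLC7 sum and SLC1A5 of the SLC1 sum, none of them called in clone 1 against wild type. Sums of the other families overlapped between clone 1 and wild type, except that SLC6 lay lower in clone 1 (18.2, 17.9 and 20.2 CPM per kb) than in wild type (20.5, 21.2 and 22.3), an order also seen with RLE factors, whereas with library size alone the groups overlapped (18.9 to 21.5 in clone 1 and 21.0 to 22.5 in wild type).

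**Figure D5:**
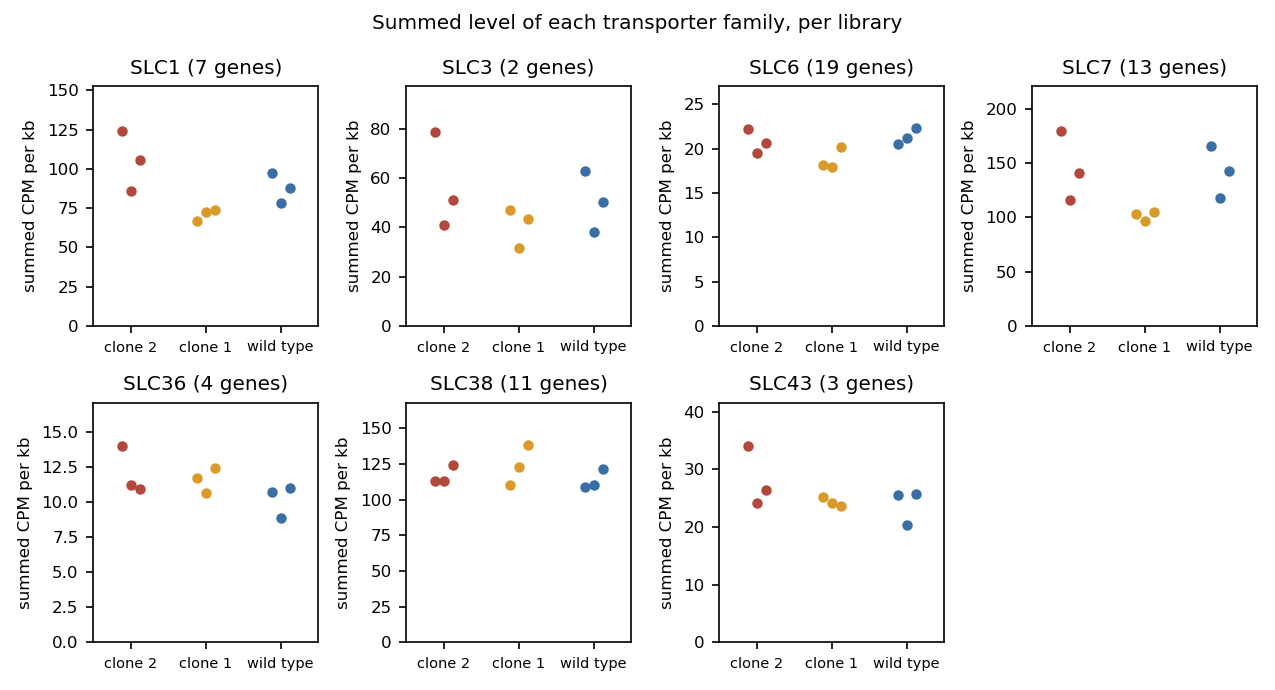
Summed level of each of the 7 transporter families in CPM per kilobase, 1 point per library of clone 2, clone 1 and wild type. The SLC1 and SLC7 sums of the 3 clone 1 libraries (up to 74.0 and 105.3) lie below those of all other libraries.

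Enzymes and regulators that use or sense the amino acids these carriers supply were taken from 6 lists. Among 10 tested genes of the list for serine, glycine and asparagine synthesis, 1 rose and 9 were not called in clone 2 (list median log2 fold change 0.29). In clone 1, 2 fell and 8 were not called (median −0.38). The gene that rose in clone 2 was PYCR1 (0.50, adjusted p = 0.0395 in edgeR), the last enzyme of proline synthesis and so outside the name of its list. In clone 1 PHGDH, the first enzyme of serine synthesis (−0.69, adjusted p = 0.0203 in edgeR), and SHMT2, which makes glycine from serine in mitochondria (−0.57, adjusted p = 0.0267), fell. Among 21 genes of the amino acid response, 3 rose in clone 2 (median 0.20) and 4 fell in clone 1 (median −0.24). The alanyl, tryptophanyl and glycyl tRNA synthetase genes AARS (0.59), WARS (0.51) and GARS (0.53) rose in clone 2, and AARS (−0.65), WARS (−0.52), GARS (−0.55) and the transcription factor CEBPB (−0.66) fell in clone 1. ATF4, the transcription factor at the head of that response, was not called (−0.19 in clone 2 and −0.09 in clone 1). Background shares of calls over all genes were those given above for each comparison.

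For glutathione and cystine use, 1 of 14 genes rose and 2 fell in clone 2 (median 0.15), and 3 fell in clone 1 (median −0.34). GSS, the second enzyme of glutathione synthesis, rose in clone 2 (0.49, adjusted p = 0.0412 in edgeR), while GGT1, which breaks down extracellular glutathione (−2.16, adjusted p = 0.0324), and the quinone reductase NQO1 (−0.72, adjusted p = 0.0470) fell. In clone 1, NQO1 (−0.74), the redox regulator NFE2L2 (−0.57) and heme oxygenase HMOX1 (−1.02) fell. For glutamine and aspartate metabolism, 2 of 11 rose and 1 fell in clone 2 (median 0.27), and 3 fell in clone 1 (median −0.46). The aspartate transaminases GOT1 and GOT2 rose in clone 2 (0.60 and 0.65) and fell in clone 1 (−0.56 and −0.61), and ASS1, which uses aspartate to make argininosuccinate, fell in both (−0.89 in clone 2, adjusted p = 0.0187, and −1.44 in clone 1, adjusted p = 0.000745, in edgeR).

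The list of 22 tested genes of lysosomal amino acid sensing and mTORC1 had 1 higher and 1 lower in clone 2, NPRL3 (0.62) of the GATOR1 complex and LAMTOR3 (−0.74) of the Ragulator complex, and 1 lower in clone 1, RPTOR (−0.62), a subunit of mTORC1. Its medians were 0.03 in clone 2 and −0.01 in clone 1. Of 11 other amino acid carriers outside these families, 0 were called by edgeR in either clone against wild type, with list medians of 0.07 in clone 2 and −0.08 in clone 1. At an unadjusted p under 0.05 there were 1 in clone 2 and 3 in clone 1, and DESeq2 and limma-voom also called 0 in either clone. The nearest to the threshold were SLC15A3, a lysosomal peptide and histidine carrier (−1.17 in clone 1, adjusted p = 0.134), and the mitochondrial carriers SLC25A22 of glutamate (−0.37 in clone 1, adjusted p = 0.146) and SLC25A44 of branched-chain amino acids (−0.33 in clone 1, adjusted p = 0.177).

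Most of these list calls against wild type were lost when any 1 of several libraries was left out. Calls over all genes fell in the same fits. In clone 2 they went from 1008 to 297 without wild-type replicate 1, 238 without wild-type replicate 2 and 237 without clone 2 replicate 3. Under the mitochondrial share as a covariate, calls over all genes in clone 2 went from 1008 to 80. In clone 1 they went from 933 to 330 and 200 without clone 1 replicates 2 and 3, and to 278 without wild-type replicate 3. In clone 2, all 12 were lost without wild-type replicate 1, 11 without wild-type replicate 2, 11 without clone 2 replicate 3 and 11 with the mitochondrial share as a covariate, and adjusted p in the fits that left out a library reached 0.232. In clone 1, ASS1 kept its call in all 9 of those fits, and the other 12 of 13 were lost without clone 1 replicate 2 or 3 or wild-type replicate 3 (adjusted p of up to 0.304). A correction for GC content and length ended 9 of the 13 clone 1 calls and kept those of ASS1, CEBPB, HMOX1 and NQO1.

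Between the clones 33.9% of all genes were called. In the list for serine, glycine and asparagine synthesis, which holds PYCR1, 6 of 10 genes were higher in clone 2 than in clone 1. So were 7 of 21 of the amino acid response, 8 of 11 of glutamine and aspartate metabolism and 2 of 11 of the other carriers. None of these lists had a gene lower by edgeR. Of 14 genes of glutathione and cystine use 6 were higher and 1 lower, and of 22 genes of lysosomal sensing 6 were higher and 2 lower. Differences of clone 2 minus clone 1 in these groups included AARS (log2 1.24), GOT2 (1.26), RPTOR (1.10), SHMT2 (1.03) and GSS (0.90). SLC7A11, lower in both clones, differed between them by −0.15 (95% interval −0.56 to 0.25), and SLC7A5 and SLC3A2 were not called between the clones (log2 differences 0.52 and 0.49, adjusted p = 0.0618 and 0.124 in edgeR). SLC7A5 was called in 4 of 18 alternatives and SLC3A2 in 3 of 18, which were the fits with no filter, with the replicate number as a block (adjusted p = 0.00947) and without clone 2 replicate 2. Replicate numbers did not match throughout between the clones, so the block is no pairing there. The mitochondrial share separated the clones without overlap, and with it as a covariate 0 of the 34 transporter genes were called between them, as given above, so the share and the clone cannot be told apart here. Under that covariate AARS kept its call (adjusted p = 0.0120 in edgeR), and GOT2, RPTOR, SHMT2 and GSS lost theirs (adjusted p = 0.0544 to 0.126).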

How the data were processed

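RNA was sequenced from 9 libraries in 3 groups, clone 2, clone 1 and wild type. The deposited values are raw counts of reads per gene. They come as 2 tables, 1 per clone, with the same 3 wild-type columns in each. Per the submitters' processing notes, STAR, Subread, featureCounts and DESeq2 were used with GRCh38, and neither the annotation release nor strand use is given in the sources used here. Groups came from the sample titles. Replicates of a group differed by a chi-square per gene of 17.7 to 62.6, far above sampling noise.

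Differential expression was tested on the deposited counts with edgeR 4.0.16 in R 4.3.3: TMM factors, a filterByExpr minimum of 10 counts, which left 16921 genes, and 1 robust quasi-likelihood model for the 3 groups over 9 libraries (biological coefficient of variation 20.3%). Two-sided p-values took the Benjamini-Hochberg adjustment over all tested genes, with calls under 0.05. The steps were tested on simulated data. CPM used TMM-scaled library sizes, and CPM per kb the gene lengths of the tables.

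The same-numbered clone 2 and wild-type libraries deviated together from their group means (r = 0.223, 0.269 and 0.246), so the labels' numbers were taken to pair them, although nothing says what a number marks. The other pairs of groups had at least 1 number under 0.1.

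Alternatives were RLE factors, no filter, DESeq2 1.42.0, limma-voom in limma 3.58.1, the 6 libraries compared, the replicate block, a GC and length correction (87.3% of tested genes had a known GC content), both together, leaving out each library and, added after the data were seen, the mitochondrial mRNA share as a covariate. The genes, the 6 lists and the rule for named genes were chosen with earlier results of these data known. Named were genes called in any comparison, the 2 most abundant per family in wild type, genes of set roles, untested genes with at least 5 counts in every library of a group, and from each list the called genes or the 3 nearest. Other members named here for completeness were added after their values were seen.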

Additional observations from a re-analysis of the deposited data

Results flagged for a closer look

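For 6 transporter genes clone 2 differed from clone 1 in edgeR (adjusted p under 0.05). The clones were contrasted within the model of all 9 libraries, so the wild-type libraries entered its filter, scaling and spread. With only the 6 clone libraries, 7 genes were called, these 6 and SLC1A7, among 5554 called of 16072 genes. Each clone is 1 line, and whether the difference comes from the knockout or from the line cannot be told apart. As log2 differences of clone 2 minus clone 1, SLC7A1 stood at 0.77, SLC1A5 at 0.62, SLC38A6 at −0.71, SLC38A4 at −1.08, SLC6A16 at −1.91 and SLC3A1 at −1.99. SLC6A16 and SLC3A1 rested on at most 41 counts per library, and SLC3A1 lost its call in 9 of 9 fits that left out a library. With the mitochondrial mRNA share as a covariate, 0 of these 6 were called. Such differences are common in these data, since 33.9% of all tested genes were called between the clones.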

How the results depend on the processing

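Numbers of called transporter genes moved by over 1.5 times under some alternatives. Calls over all genes are given in brackets. They are out of 16921 tested genes, or 31961 with no filter, 16916 with DESeq2 and 14767 with the GC and length correction. Clone 2 against wild type had 3 called (1008), and 6 with no filter (1663) and 5 with DESeq2 (1818). It had 7 with the replicate block (2699) and 6 with the block and GC and length correction (3170). Clone 1 against wild type had 1 called (933), and 4 with no filter (1512) and 2 with DESeq2 (1479). It had 3 with the 6 libraries compared (1296 of 16513) and 6 with the replicate block (2322). It had 7 with the block and GC and length correction (2169) and 2 with the mitochondrial covariate (687). Clone 2 against clone 1 had 6 called (5733), and 11 with no filter (5712) and 15 with the replicate block (7101). It had 14 with the block and GC and length correction (6344) and 0 with the mitochondrial covariate (391). Leaving out each library gave 1 to 4 in clone 2 against wild type (1, SLC7A11, without clone 2 replicate 3 or wild-type replicate 2), 1 to 2 in clone 1 against wild type and 4 to 7 between the clones. Calls over all genes in those fits ran from 237 to 1584, 200 to 1301 and 3639 to 5782, in that order. RLE factors, limma-voom and the GC and length correction kept the 3 counts within 1.5 times. The cause of these changes was not tested.

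The replicate numbers matched throughout only for clone 2 with wild type, by correlations in these same data. The block was fitted over all 9 libraries, clone 1 included, so it is not a pairing of those 2 groups alone. In the other comparisons replicate numbers correlated at −0.0965 to 0.245 for clone 1 with wild type and −0.0215 to 0.219 for clone 2 with clone 1, and not every library was closest to its own number. Of the members' alternative values, 1643 kept direction and side of the threshold, 69 gained a call, 28 lost one and 94 changed sign with no call in either fit. None of the called changes reversed.

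Over all tested genes, the GC and length correction changed the split of calls to 983 higher and 465 lower in clone 2 (main 543 and 465) and to 449 higher and 396 lower in clone 1 (main 239 and 694). Depth limits the rare genes: SLC3A1, SLC6A16, SLC6A14 and SLC1A7 had few counts, and the 17 untested genes could not be compared.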
